A study of Rattus norvegicus with 4 samples.

Results

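The genes described here make the protein parts of plasma lipoproteins and the enzymes that remodel these particles in the blood. They are Apoa1, Apoa2, Apoa4, Apob, Apoc1, Apoc3, Apoe, Apoh, Lipc and Lcat. They were chosen by name: every probe set was taken whose annotation gave 1 gene symbol equal to one of these names. That found 12 probe sets for all 10 genes, out of 12783 probe sets and 10411 genes with 1 symbol. A probe set is a group of short DNA probes that together report the transcript of a gene. Apob and Apoe had 2 probe sets each, and the other genes had 1.

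The samples were control livers of 4 male rats of the outbred Sprague-Dawley stock, 10 to 12 weeks old, that had free access to feed and water. All came from 1 breeding colony and received no treatment, so they form 1 group and no groups were compared. RNA of a liver slice from each rat was hybridised to its own Affymetrix expression array, so a rat and its array cannot be told apart. Each value is a log2 signal, in which a difference of 1 is a doubling, and values are given in the order rat 1 to rat 4. The deposited signals ran from 5.98 to 15.07, and precision is limited by the number of arrays.

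Lipoproteins carry triglyceride and cholesterol ester through the blood in a core covered by phospholipid and apolipoproteins. The hepatocyte assembles very low density lipoprotein on Apob, and it secretes Apoa1, on which high density lipoprotein forms. Smaller apolipoproteins move between particles and set how fast lipases and receptors act on them. In the rat, liver and intestine both make several of these proteins, and the liver is the main source of most of the others.

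All 10 genes gave a signal above background in the livers, against 50.7% of the 10411 genes measured. Background was set at 8.24 on the log2 scale. This is the 95th percentile over 69 probe sets of 53 marker genes of brain, muscle, testis and eye, each taken at its mean over the rats. The brightest probe sets of the 10 genes had mean signals between 11.12 for Lipc and 14.52 for Apoe. The dimmest of these was still brighter than 97.4% of all probe sets that are not controls. Signal depends on the probes as well as on the transcript, so these values place each probe set on the array and do not rank the genes by amount of transcript. The same holds for the other counts above background.

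**Figure D1:**
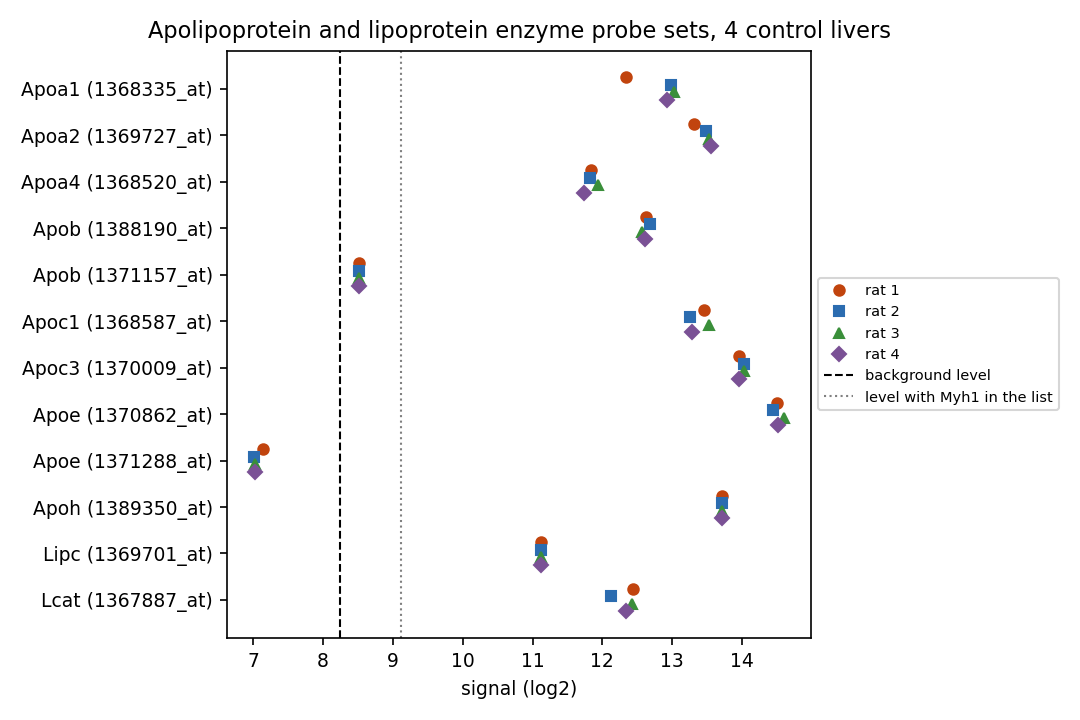
Log2 signal of each of the 12 probe sets in each of the 4 rats, with the background level as a dashed line and the level of 9.11, set with Myh1 in the background list, as a dotted one. The brightest probe set of every gene lies above the level of 8.24 in all 4 rats, while the second Apoe probe set, near 7.05, lies below it.

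Some probe sets carried the same value on all 4 arrays to within 0.001, and these are called flat here. Flat probe sets made up 43.6% of those that are not controls, and 1862 of the 5279 genes above background were flat. Among the 10 genes, Apoh (probe set 1389350_at) was flat at 13.72 and Lipc (1369701_at) was flat at 11.12. The signals of a flat probe set give a level but no measure of how the rats differed. The remaining 8 genes were not flat.

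Apoa1 (probe set 1368335_at), the main protein of high density lipoprotein and the cofactor of Lcat, had signals of 12.34, 12.98, 13.03 and 12.92, a mean of 12.82 ± 0.32 (SD, n = 4). Rat 1 was the low one, and the other 3 rats lay within 12.92 to 13.03. The difference of rat 1 from the mean of the others was -0.64, a signal 35.6% lower, and the highest rat exceeded the lowest 1.61-fold. The SD of Apoa1 was larger than that of 93.0% of the 875 genes in the brightest 10% that were not flat. It was 3.72 times the median SD of those genes, and without rat 1 the SD was 0.0523.

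Apoa2 (probe set 1369727_at), another protein of high density lipoprotein, had signals of 13.31, 13.49, 13.52 and 13.56, a mean of 13.47 ± 0.11 (SD, n = 4). It too was lowest in rat 1, with a difference of -0.21 from the mean of the others, or 13.7% lower. Without rat 1 its SD was 0.0342. Apoa1 and Apoa2 were thus both lowest in rat 1, as were Apoc3 and 29.5% of the 3417 genes above background that were not flat. Apoa4 (probe set 1368520_at), a protein of chylomicrons and high density lipoprotein that rat intestine and liver both make, did not share that order. Its signals were 11.84, 11.83, 11.94 and 11.73, with rat 4 lowest and rat 3 highest and a mean of 11.84 ± 0.08 (SD, n = 4).

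Apob (probe set 1388190_at), the structural protein of very low density lipoprotein and of the particles derived from it, had signals of 12.62, 12.68, 12.57 and 12.60. The 4 rats lay within 0.11 of each other, and the SD of 0.0457 was larger than that of 23.2% of the genes in the brightest 10% that were not flat. The second Apob probe set (1371157_at) was flat at 8.51, which is 0.27 above background. Apob is known in rodent liver for the editing of its transcript by Apobec1, which yields the short form of the protein. The Apobec1 signals of 7.66, 7.93, 7.52 and 7.80 lay below background, which does not show that the transcript was absent.

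Apoc3 (probe set 1370009_at), which inhibits lipoprotein lipase and slows the uptake of triglyceride-rich particles, had signals of 13.95, 14.03, 14.02 and 13.96. The rats lay within 0.08 of each other, the narrowest range among the 8 genes. Apoc3 lies between Apoa1 and Apoa4 on rat chromosome 8 in assembly GRCr8, with Apoa5 next to Apoa4 and no other coding gene between them. Apoa5, which aids lipoprotein lipase, had signals of 12.14, 12.14, 12.12 and 12.14. Across the 4 rats Apoc3, Apoa4 and Apoa5 each ranged over 0.21 or less, against 0.69 for Apoa1.

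Apoe (probe set 1370862_at), the ligand by which remnant particles bind their receptors on hepatocytes, had signals of 14.50, 14.45, 14.61 and 14.52. Rat 2 was lowest, with a signal 6.47% below the mean of the others, and rat 3 was highest. The second Apoe probe set (1371288_at), which the annotation assigns to the same transcript, read 7.14, 7.01, 7.03 and 7.03. These values lie below background, and their mean of 7.05 is brighter than 3.30% of the probe sets that are not controls. The order of the rats also differed between the Apoe probe sets, with rat 1 highest on the dim probe set and rat 3 highest on the bright one.

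Apoc1 (probe set 1368587_at), a small protein that inhibits the uptake of remnants, had signals of 13.45, 13.25, 13.52 and 13.28, a mean of 13.38 ± 0.13 (SD, n = 4). Rats 2 and 4 were the lower ones, and rat 2 was 10.9% below the mean of the others. Apoc1 lies between Apoe and Apoc4 on rat chromosome 1. Apoc4 (probe set 1384417_at), an apolipoprotein of very low density lipoprotein, had signals of 11.81, 10.79, 12.13 and 10.98, a mean of 11.43 ± 0.65 (SD, n = 4). It had the order of rats seen for Apoc1, with rats 2 and 4 low and rats 1 and 3 high, over a range of 2.54-fold against 1.20-fold for Apoc1. The same order was held by 6.73% of the 3417 genes above background that were not flat, which made it the most frequent of the 24 possible orders. A shared order is therefore given as a description of these 4 arrays only.

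**Figure D2:**
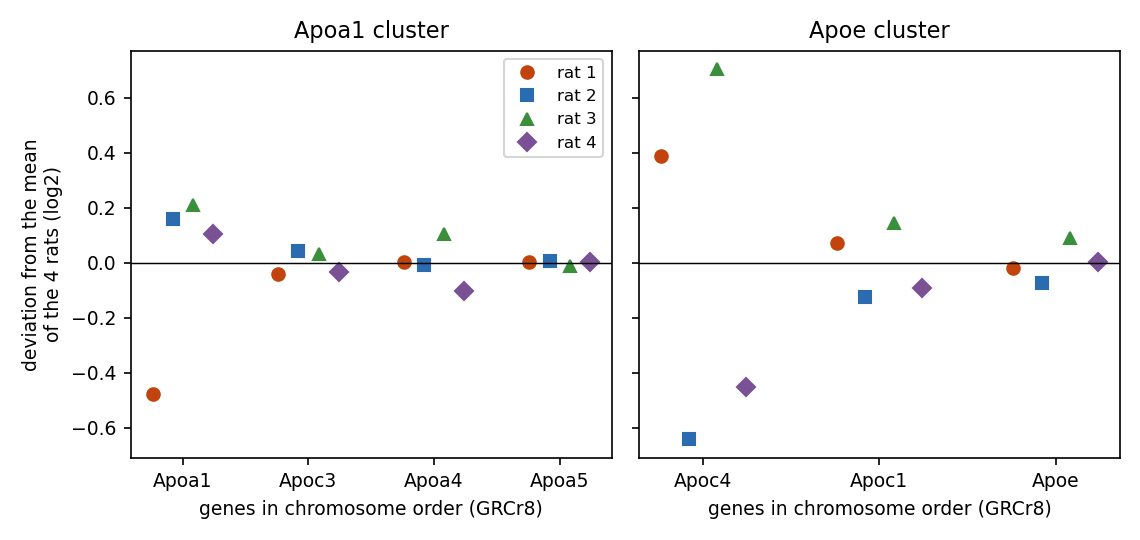
Deviation of each gene from its own mean over the 4 rats (log2) for the neighbouring genes of chromosome 8 and of chromosome 1, with 1 symbol per rat. Apoa1 has rat 1 far below the others, and Apoc4 has rats 1 and 3 above its mean and rats 2 and 4 below it, with Apoc1 in the same order over a smaller range.

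Promoter windows are shown for Apoc1, Apoe and Lcat, the genes of this set that were lowest in rat 2, and for Apoc4, which had the order of Apoc1. RefSeq windows of GRCr8 hold 250 bases before and 50 bases after a transcript start, and 6 of the 10 genes had one. The Apoc1 window is that of the upstream of 2 starts, at chr1:88478256-88478555. The Apoe window is that of the middle of 3 starts, at chr1:88484650-88484949. These starts were picked after the matches were seen. Apoc4 has 1 start, with its window at chr1:88467860-88468159, and Lcat has 1, with its window at chr19:50748015-50748314. All 4 windows are on the minus strand, and capitals mark motif letters found on either strand.
Apoc1: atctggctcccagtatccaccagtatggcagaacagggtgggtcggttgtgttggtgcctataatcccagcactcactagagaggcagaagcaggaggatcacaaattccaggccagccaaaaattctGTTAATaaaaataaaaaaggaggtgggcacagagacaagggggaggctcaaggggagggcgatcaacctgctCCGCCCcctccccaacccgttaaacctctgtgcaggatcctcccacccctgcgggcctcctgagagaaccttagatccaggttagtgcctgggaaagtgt
Apoe: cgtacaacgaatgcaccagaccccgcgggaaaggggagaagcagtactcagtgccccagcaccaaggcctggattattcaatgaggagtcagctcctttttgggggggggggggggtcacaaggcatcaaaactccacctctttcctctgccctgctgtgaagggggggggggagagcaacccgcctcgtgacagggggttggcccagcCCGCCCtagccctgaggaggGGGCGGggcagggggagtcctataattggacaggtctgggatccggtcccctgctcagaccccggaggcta
Apoc4: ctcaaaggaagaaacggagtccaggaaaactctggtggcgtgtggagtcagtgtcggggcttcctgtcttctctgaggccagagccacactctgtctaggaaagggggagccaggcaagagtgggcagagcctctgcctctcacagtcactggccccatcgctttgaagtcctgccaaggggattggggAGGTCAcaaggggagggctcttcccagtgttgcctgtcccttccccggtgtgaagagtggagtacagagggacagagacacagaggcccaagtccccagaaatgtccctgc
Lcat: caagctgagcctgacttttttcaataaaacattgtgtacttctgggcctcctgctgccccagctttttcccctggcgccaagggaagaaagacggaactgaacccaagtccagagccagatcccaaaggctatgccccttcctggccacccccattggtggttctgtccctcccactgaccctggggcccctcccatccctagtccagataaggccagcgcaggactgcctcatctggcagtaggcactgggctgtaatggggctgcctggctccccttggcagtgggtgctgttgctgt

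The motifs searched on both strands were the nuclear receptor letters AGGTCA and the HNF1 letters GTTAAT, with an Sp1 box GGGCGG as the third. The search also held the TATA letters TATAAA and the forkhead letters TGTTTAC. No motif of the list overlapped another in these 4 windows. The Apoc1 window held GTTAAT at position -122 from the start and the Sp1 letters, on the reverse strand, at -50. On the strand printed those letters read CCGCCC. The Apoe window held the Sp1 letters at -41 on the reverse strand and at -21 on the forward strand. At the other Apoe starts, the upstream window held 0 matches and the downstream window held the same Sp1 letters at -220 and -200. At the downstream Apoc1 start the same letters lay at -207 and -135. Apoc4 held AGGTCA at -61, and the Lcat window held none of the 5 motifs. Of all 33469 windows of the same length, 33.1% held GGGCGG, 16.2% held AGGTCA and 7.45% held GTTAAT. A match describes letters and is not a binding site, and a missing match says only that the letters are not in this window.

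Lcat (probe set 1367887_at), which esterifies cholesterol on high density lipoprotein with Apoa1 as its cofactor, had signals of 12.44, 12.13, 12.43 and 12.34, a mean of 12.33 ± 0.15 (SD, n = 4). Rat 2 was the low one, with a difference of -0.28 from the mean of the others, or 17.5% lower. Without rat 2 the SD was 0.0543. Lcat was highest in rat 1, where Apoa1 was lowest, but rat 3, where Apoa1 was highest, lay close at 12.43 against 12.44. Lipc, the hepatic lipase that hydrolyses triglyceride and phospholipid of remnants and high density lipoprotein, and Apoh, a plasma protein that binds anionic phospholipid, were flat. They add no information on the rats. In GRCr8 the genes outside both neighbour groups are Lipc on chromosome 8, Apob on 6, Apoh on 10, Apoa2 on 13 and Lcat on 19.

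**Figure D3:**
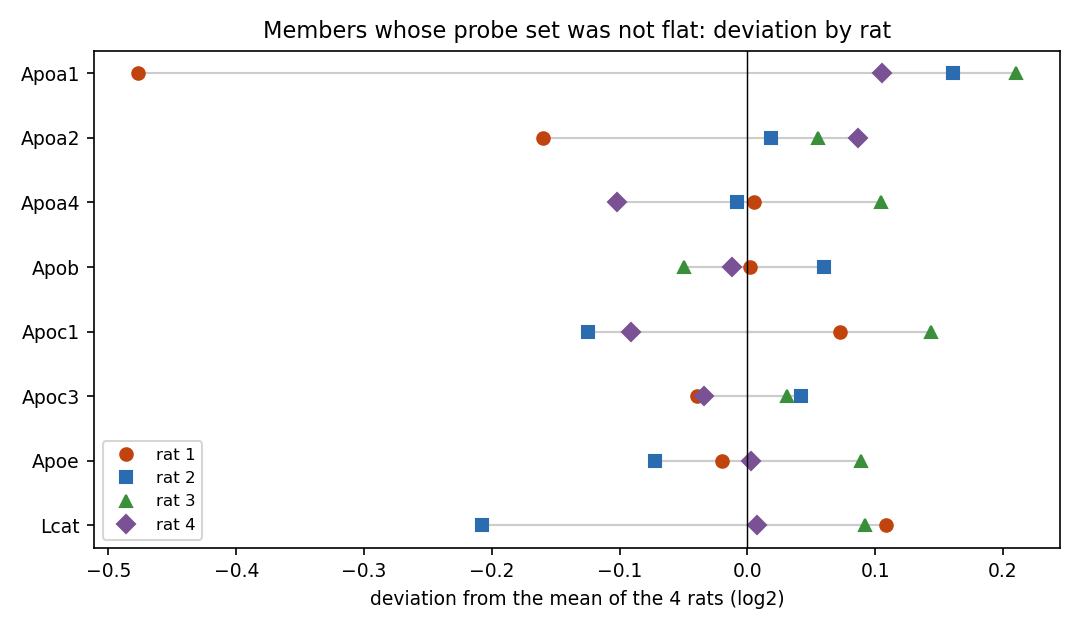
Deviation of each of the 8 genes that were not flat from its own mean over the 4 rats (log2), with 1 symbol per rat. Apoa1 spans 0.69 from rat 1 to rat 3, and Apob and Apoc3 span 0.11 and 0.08.

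Whether any of these genes differed between the rats more than genes of like signal was tested with limma. The test set the variance of each probe set over the 4 rats against the variance predicted for its signal, and p-values were adjusted by the Benjamini-Hochberg method over the 8949 probe sets that were not flat. The test called 0% of them, or 0 of 8949, at an adjusted p of 0.05, and 435 had an unadjusted p under 0.05. Apoa1 was the only brightest probe set of the 10 genes with an unadjusted limma p under that value, at 0.0344, and its adjusted p was 0.948. Every other member probe set tested had a limma adjusted p at least as high. Without rat 1, which held most of the spread of Apoa1, 0 of the member probe sets had an unadjusted limma p under 0.05. Leaving out rat 2, rat 3 or rat 4 instead left 1 member probe set under that value. On simulated data with uneven variances modelled on these, the adjusted test called none of the probe sets given a larger SD. The count of 0 therefore does not show that the rats were alike. The difference of rat 1 in Apoa1 is thus a description of 4 rats. Such p-values measure only the spread between these arrays.

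**Figure D4:**
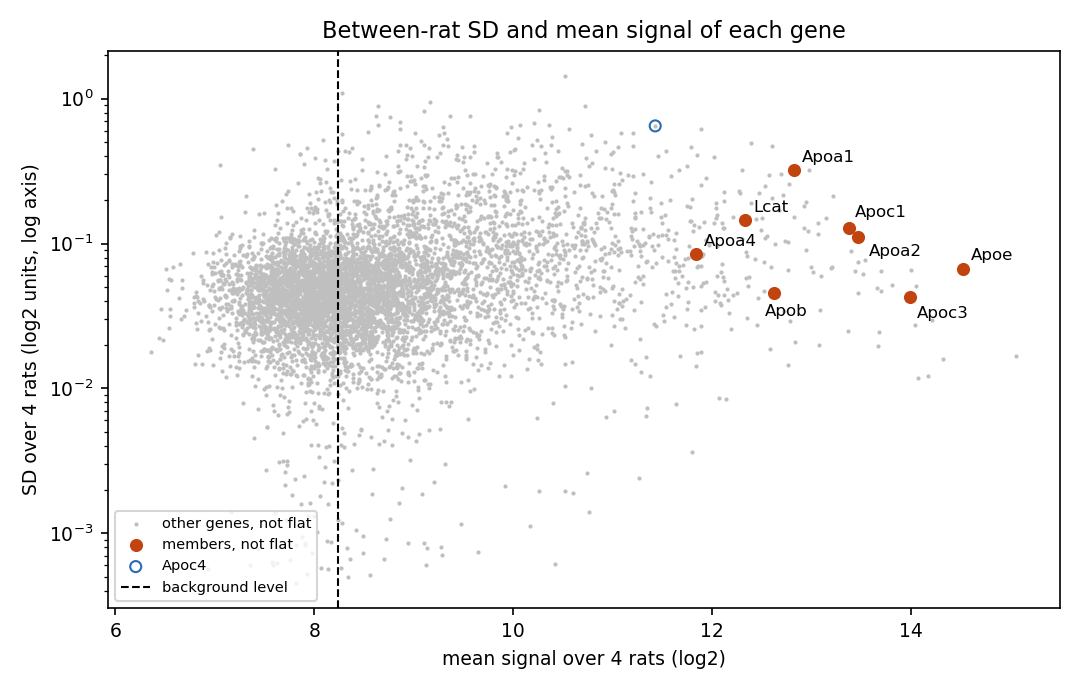
Between-rat SD (log2) against mean log2 signal of all genes that were not flat, SD being on a log axis, with the background level as a dashed line, the 8 members named and Apoc4 as an open circle. Apoa1 has the largest SD of the 8, at 0.32, and Apoc3 and Apob lie at 0.0425 and 0.0457.

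Set against the genes in the brightest 10% that were not flat, the SD of Lcat was larger than that of 74.5%, that of Apoc1 larger than 70.4% and that of Apoa2 larger than 63.5%. The SDs of Apoa4, Apoe, Apob and Apoc3 were larger than those of 49.1%, 38.5%, 23.2% and 20.5%. Apoa1 was thus the only member among the most variable 10% of the bright genes.

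The 8 genes did not share a low rat. Rat 1 was lowest for 3 of them, namely Apoa1, Apoa2 and Apoc3, where 29.5% of the 3417 genes above background that were not flat were lowest in rat 1. Rat 2 was lowest for Apoc1, Apoe and Lcat, against 28.7% of those genes. Rat 3 was lowest for Apob alone (18.5% of those genes) and rat 4 for Apoa4 alone (23.3%). Rat 3 was highest for 4 of the 8, which were Apoa1, Apoa4, Apoc1 and Apoe, against 32.8% of those genes. The highest rat was rat 1 for Lcat (24.7%), rat 2 for Apob and Apoc3 (21.7%) and rat 4 for Apoa2 (20.8%). The median deviation over the 8 genes was -0.0089 in rat 1, 0.0051 in rat 2, 0.090 in rat 3 and -0.0046 in rat 4. Over the 3417 genes it was -0.0029, -0.0041, 0.0107 and -0.0012 in rats 1 to 4. In rat 3 it was 0.0599 over 46 other genes of lipoprotein metabolism, described below. A positive median in rat 3 was thus not particular to the 8 genes. The median SD over the 8 genes was 0.0974, where the median was 0.0861 over the genes in the brightest 10% that were not flat and 0.0562 over the 3417 genes.

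The genes most like Apoa1 across the 4 rats were sought by the root mean square difference of their deviations, over 3416 other genes above background that were not flat. Gstm7, a glutathione transferase, was nearest at 0.0714, with signals of 9.18, 9.62, 9.79 and 9.66. Cd14, the co-receptor for bacterial lipopolysaccharide, followed at 0.0757, with 8.95, 9.70, 9.63 and 9.70. Tob1, Polg2 and Fam89a came next, at 0.0796, 0.0796 and 0.0854. All 5 were lowest in rat 1, which follows from picking them for their likeness to Apoa1. Apoa1 itself stood at place 24 of the 3417 genes when ordered by how far rat 1 lay below the other rats.

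Other genes of lipoprotein metabolism were taken from lists by role. Of 70 that had a probe set, 53 (75.7%) were above background, against 50.7% of the 10411 genes measured. That share of 50.7% also stands beside the count of each list below. None of the 53 was called by the variance test, which called 0 of 8949 probe sets. The 46 of the 53 that were not flat had a median SD of 0.0814. Among other apolipoproteins, 6 of 8 measured genes were above background. Clu, a chaperone carried on high density lipoprotein, had signals of 12.22, 12.51, 12.52 and 12.52, with a difference of -0.29 between rat 1 and the mean of the others. Pon1, the high density lipoprotein paraoxonase, was flat at 12.63. Clu and Apoa1 were thus both lowest in rat 1, as were 29.5% of the 3417 genes above background that were not flat. The second Clu probe set (1388246_at) was flat at 8.66 and gives no measure of how the rats differed.

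For assembly and secretion, 15 of 17 measured genes were above background. P4hb, a disulfide isomerase that is also a subunit of the microsomal triglyceride transfer protein, averaged 12.36 ± 0.05 (SD, n = 4). Hspa5, an endoplasmic reticulum chaperone, had signals of 11.50, 11.91, 11.93 and 11.84, with a difference of -0.40 between rat 1 and the mean of the others. Rat 1 was lowest for 7 of the 12 genes of this list that were not flat, against 29.5% of all such genes above background. Acsl1, which activates fatty acids, was flat at 12.21, and Lpin1, a phosphatidate phosphatase, had 8.49, 8.60, 8.70 and 8.63.

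For receptors and sterol transporters, 11 of 16 measured genes were above background. Lsr, a receptor for triglyceride-rich particles, had signals of 9.39, 9.52, 9.81 and 9.54, and Abcg5, a subunit of the biliary sterol transporter, averaged 8.33 ± 0.12 (SD, n = 4). Its partner Abcg8 was below background. Npc2, which binds cholesterol in lysosomes, was flat at 10.64, and Hdlbp, a lipoprotein-binding protein, averaged 10.38 ± 0.02 (SD, n = 4). Rat 3 was highest for 5 of the 8 genes that were not flat, against 32.8% of all such genes above background.

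Among plasma lipases and their modulators other than the 10 genes, 5 of 8 measured genes were above background. Angptl4, a lipoprotein lipase inhibitor that rises with fasting, had signals of 9.24, 8.19, 9.07 and 9.53, a range of 2.53-fold. Rat 2 was the low one, with a difference of -1.09 from the mean of the others. It was also the low rat of Apoc1, Apoe and Lcat, and of 28.7% of the 3417 genes above background that were not flat. Angptl8, an inhibitor that rises with feeding, had signals of 8.92, 8.88, 9.29 and 8.25, with rat 4 lowest. Lipa, the lysosomal acid lipase, averaged 10.26 ± 0.07 (SD, n = 4). Lpl, which acts mainly in muscle and fat, was below background.

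Of the transcription factors that act on lipoprotein genes, 16 of 21 measured were above background and all 16 were not flat. Their median SD was 0.176, the highest of the 5 lists described here. Srebf1, which drives fatty acid synthesis genes, had signals of 10.77, 11.53, 11.17 and 10.56, and Foxa3, a hepatocyte forkhead factor, had 8.96, 9.31, 9.69 and 8.63. Rat 4 was lowest for 7 of the 16, Srebf1 and Foxa3 among them, against 23.3% of the 3417 genes above background that were not flat. Rat 3 was highest for 10 of the 16, against 32.8% of those genes. Apoa4 was the only one of the 8 genes that was lowest in rat 4. Srebf2, the sterol-regulated factor, averaged 9.83 ± 0.16, and Rarb, a retinoic acid receptor, 8.86 ± 0.48 (SD, n = 4).

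**Figure D5:**
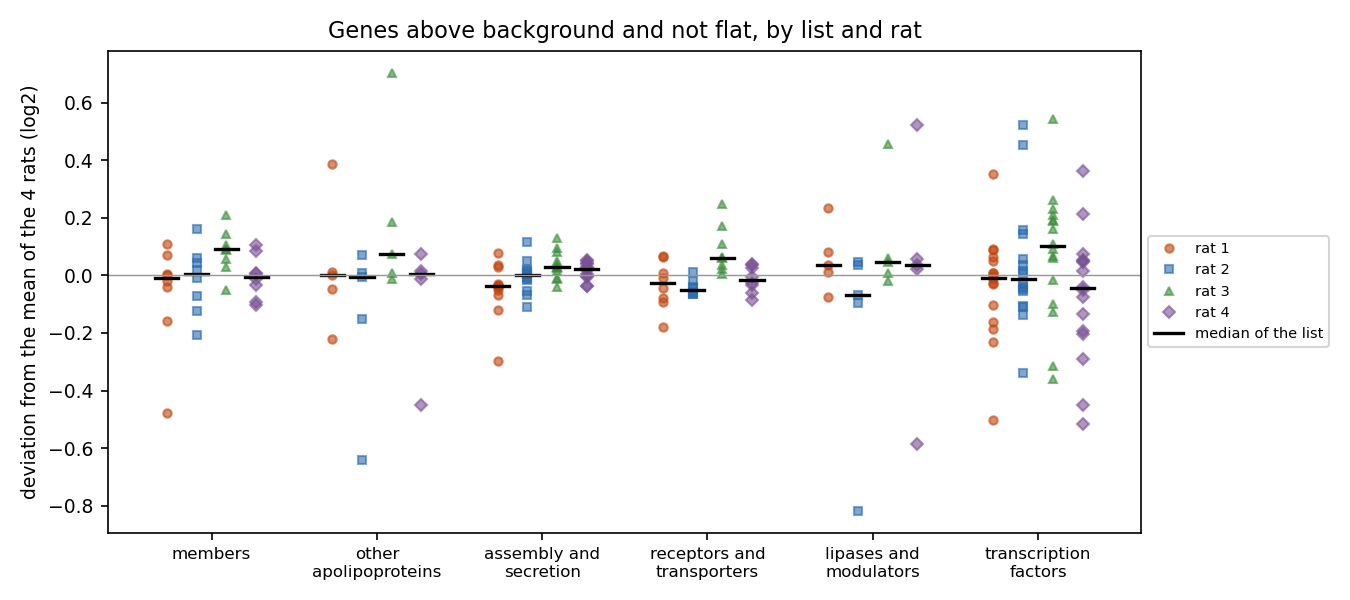
Deviation of each gene from its own mean over the 4 rats (log2), by list and rat, for genes above background that were not flat, with the list median as a bar. The Apoa1 point of rat 1 is the lowest of the members, and the Angptl4 point of rat 2 is the lowest of all lists.

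The labelled tissue was checked against its markers. All 12 measured hepatocyte plasma proteins were above background, with Alb at 15.06 ± 0.02 and Ttr at 14.32 ± 0.02 (SD, n = 4), and their mean signals by rat were 13.72, 13.73, 13.68 and 13.72. The most variable of them were Ttpa and Fgb, with SDs of 0.0838 and 0.0645. In rat 1, where Apoa1 was low, the median deviation of the list was 0.009. Markers of Kupffer cells, the liver macrophages, had 7 of 7 measured genes above background and mean signals by rat of 9.76, 9.98, 9.90 and 9.82, with rat 1 lowest and a median deviation there of -0.143. Of the 6 Kupffer markers that were not flat, 3 were lowest in rat 1, 2 in rat 3 and 1 in rat 4. Clec4f and C1qa, both Kupffer markers, averaged 10.51 ± 0.24 and 10.13 ± 0.25 (SD, n = 4). Of other cell types, 3 of 6 endothelial markers (Eng, Kdr and Lyve1), 5 of 10 stellate markers (Col3a1, Reln and Col1a1 among them) and 1 of 8 gut markers (Cdh17) were above background, against 50.7% of all genes. These counts move with the background level: at the highest Bacillus control they were 6 endothelial, 8 stellate and 6 gut markers, and with Myh1 in the background list 2 stellate markers were above it. Mean signals by rat were 8.64, 8.61, 8.72 and 8.65 for the endothelial list, 8.48, 8.65, 8.23 and 8.67 for the stellate list and 8.10, 8.08, 8.08 and 8.16 for the gut list. In rat 3, where the median deviation of the 8 genes was 0.090, that of the stellate list was -0.293 and that of the hepatocyte list -0.040. The endothelial list, with 2 genes, was at 0.177 in rat 3 and the Kupffer list at 0.034. The gut list was at -0.119 there and rests on 1 gene, Cdh17. Col1a1 had signals of 8.43, 8.88, 7.76 and 9.09 and Col3a1 had 10.80, 11.15, 10.23 and 11.15, both lowest in rat 3. Of the 5 stellate markers above background, none of them flat, 4 were lowest in rat 3, while Acta2 was highest there. The part of these markers in the deviation of rat 3 was not tested. The beta-actin control set differed between its 3′ and 5′ probe sets by 0.85, 0.63, 0.54 and 0.66, largest in rat 1, and the Gapdh sets differed by 0.48, 0.52, 0.54 and 0.54. The Apoa1 difference of rat 1 was -0.648 less the median of the same difference over the hepatocyte genes that were not flat, and -0.797 less that of the beta-actin 3′ control. The part of the Kupffer markers and of the difference between 3′ and 5′ ends in it was not tested. In such bulk tissue, fewer cells of a type and less RNA per cell cannot be told apart.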

How the data were processed

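The submitters' processing notes name R 2.4.1 and affy 1.12.2, with GCRMA and RMA also listed and their roles not given. The authors deposited log2 signals of 15923 probe sets on 4 arrays, already on a common scale, with a median of 8.11 on each array. Scanner settings deposited with each array name the chip RAE230A, while the labels' protocol names RAE230-2; 1 lot, station and day were used, but each array had its own fluidics module (4 in all), so module and rat cannot be told apart. Of the probe sets, 12783 had 1 gene symbol, 312 several and 2771 none besides the 57 controls; 12748 matched the gene table of GRCr8, used for names, chromosomes and neighbours.

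A gene was read from its brightest probe set. Background left out Myh1, whose probe sets an earlier result had shown to be bright in these livers. Deviations are from the mean of the 4 rats. The variance test used an intercept-only fit in limma 3.58.1 (R 4.3.3), with 3 residual degrees of freedom and a trended robust prior. On simulated data the test recovered most enlarged SDs only where the other variances were even. That setting was added after the test had recovered none with uneven variances modelled on these arrays. The uneven SDs were drawn from the prior and capped at a high percentile of the observed SDs before some were enlarged. Other steps ran in Python 3.11.15 with pandas 2.3.3 and numpy 2.4.6.

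The members, gene lists and rules were chosen with earlier results of these data known. Named genes were the members, their chromosomal neighbours, the 5 genes most like Apoa1, and of each list the 2 brightest and the 2 with the largest SD above background. Apobec1, Abcg8, Lpl and Acta2 were named outside that rule, after their values were seen. Genes with no probe set of 1 symbol, such as Apoc2 and Mttp, were not analysed here. Alternatives covered the background level, the probe set per gene, scaling, flat probe sets, the prior and leaving out each rat.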

Additional observations from a re-analysis of the deposited data

Results flagged for a closer look

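Of 55 sets of 4 values examined, 9 held a rat whose gap to the nearest of the others was large relative to the whole range. Chance gives about 5% for sets that were not selected; many of these were picked for their spread or their likeness to Apoa1, so the count is not set against it. Rat 1 stood apart for Apoa1, at 12.34 against 12.92 to 13.03 in the others, for Clu, at 12.22 against 12.51 to 12.52, and for the dim Apoe probe set, at 7.14 against 7.01 to 7.03. Rat 1 also stood apart for Cd14, at 8.95 against 9.63 to 9.70, but Cd14 was picked for its likeness to Apoa1. Cdh17 was higher in rat 4, at 10.18 against 9.67 to 9.74. The median deviation of the gut epithelium list in rat 4, 0.357 against -0.157 to -0.0809 in the others, rests on Cdh17 alone. In rat 3 the median deviation of the members was 0.0903 against -0.00889 to 0.00513 in the others, and that of the other apolipoproteins was 0.0752 against -0.00631 to 0.00351. The median in rat 3 was also positive over the 46 pathway genes above background and not flat, at 0.0599. Over all 3417 such genes it was 0.0107. The stellate list, at -0.293 in rat 3 against -0.046 to 0.223 in the others, was not among the 9 sets. In rat 2 the median deviation of the lipase list was -0.0664 against 0.0344 to 0.0469 in the others. No cause was tested.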

How the results depend on the processing

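All 10 genes were above background in each of the 12 alternatives tried for that count. In each of 10 alternatives 0 member probe sets were called variable. The test called 0 of all probe sets in each of these 10 as well, so that count says nothing particular to the members. With a prior that was not robust, or with probe sets above background alone, 0 rather than 1 member probe set had an unadjusted limma p under 0.05. With Myh1 in the background list the level was 9.11, and 30 rather than 53 pathway genes lay above it, including 5 rather than 11 receptors and transporters, 1 rather than 5 lipases and modulators and 8 rather than 16 transcription factors. That level also takes 18.7% rather than 50.7% of all genes, and it lies above the second Apob probe set. With the highest Bacillus control as the level, 79.6% of all genes and 61 pathway genes were above it, including 8 rather than 5 lipases and modulators, and so were 6 rather than 3 endothelial, 8 rather than 5 stellate and 6 rather than 1 gut markers. With Myh1, 2 stellate markers were. The median deviation of the members in rat 1 was -0.00889, and the mean over members was -0.0634. Apoa1 in rat 1 less the other rats, -0.64, was -0.797 after the beta-actin 3′ control was subtracted, and -0.610 to -0.662 in the other alternatives, all chosen after seeing the data. The median SD of the members, 0.0974, ran from 0.0683 to 0.110 over its alternatives, and that of the pathway genes, 0.0814, from 0.0657 to 0.0844. After quantile normalization the highest rat for Apoa2 and for Apoc3 became rat 3. The median deviation in rat 2, 0.0051, ran from -0.0164 to 0.0125 and so changed sign; the median in rat 3 ran from 0.0596 to 0.131. Signal near background and 4 arrays limit what can be seen of small differences.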

Other observations

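Srebf1 had a second probe set, which read 10.05, 10.74, 10.58 and 9.89 in rats 1 to 4. It had the order of the brighter one, with rat 4 lowest and rat 2 highest.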
